A study of Mus musculus with 10 samples.

Results

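Heat shock and unfolded protein response genes were followed in group 2 innate lymphoid cells (ILC2), lymphocytes of tissues that carry no antigen receptor and make type 2 cytokines. The members are 38 genes listed by symbol, 17 of the heat shock response of the cytosol and mitochondria and 21 of endoplasmic reticulum (ER) stress, out of 54838 gene identifiers in the count table. The ILC2 were sorted from lungs of C57BL/6 mice with papain-induced lung inflammation (papain is a protease allergen), as lineage-negative, CD90.2-positive cells with or without ST2 and KLRG1. Total RNA of 5 wild type (WT) and 5 c-Maf KO libraries was sequenced. The WT and KO mice were littermates housed together. How Maf was deleted, and in which cells, is not stated in any source used here. Library numbers, 1 to 5 in each group, follow accession order and do not pair WT with KO. Whether each library is a separate animal is not said in the labels, and p-values reflect the spread between these libraries.

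Heat shock proteins are chaperones that hold, fold and refold other proteins. The HSP70 and HSP90 families work with J-domain co-chaperones and nucleotide exchange factors, and the transcription factor HSF1 raises their genes when unfolded protein builds up in the cytosol. In the ER the sensors IRE1 (Ern1), ATF6 and PERK respond to unfolded secretory protein: IRE1 splices Xbp1 mRNA, ATF6 is cut to release a transcription factor, and PERK phosphorylates eIF2 alpha, which favours translation of ATF4. Cells that secrete much cytokine depend on the ER folding machinery.

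The KO libraries held less and more unevenly spread RNA signal than the WT libraries, and this touches every value below. Totals were 21400938 to 24489987 counts in WT and 3620002 to 9867580 in KO, and of 7490 genes with enough counts to test, 0.694 to 3.51% had at most 3 counts in a WT library against 54.6 to 82% in a KO library. KO library 1 stood apart: its 100 leading genes took 93.43% of the counts, globin genes 18.96% and small structural RNAs 38.66%, against at most 61.01, 0.07484 and 3.027% in the other 9 libraries. Maf, the targeted gene, had 3252, 3832, 1412, 1696 and 2727 counts in WT and 0, 0, 0, 108 and 0 in KO, each listed in the order of libraries 1 to 5 as are all values below. Its log2 fold change was −4.34 (SE 2.06) and missed the edgeR threshold (adjusted p = 0.141). Maf passed the exact permutation test (adjusted p = 0.0268), DESeq2 (0.0474) and voom (0.00572). It also passed edgeR without KO library 4 (0.00525), but that library held all KO counts of Maf. This last pass followed from the choice of library and is no separate evidence, and 37.8% of genes passed as lower in that fit. All 13 ILC2 markers had over 3 counts in every WT library and 9 did in every KO library, with summed levels of 7580 to 11700 and 753 to 15800 CPM (reads of a gene relative to its library's total). The 8 erythroid markers summed to 9.1 to 25 CPM in WT and 120 to 190000 CPM in KO, with Alas2 at 0 in every library. T cell markers summed to 159 to 479 CPM in WT and 7.99 to 120 in KO, macrophage markers to 2.86 to 542 and 0 to 6.31, and endothelial markers to 37.5 to 166 and 0 to 18.2. Of the 5 endothelial markers, however, only 1 had over 3 counts in any WT library and 3 did in some KO library. Fibroblast markers summed to 0 to 0.0408 CPM in WT and 0 to 550 in KO, above every WT library in KO libraries 1, 2 and 5. Only 1 of these 5 markers had over 3 counts in any KO library, and 0 did in WT. The part of these differences in the results below was not tested.

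In WT ILC2 Hsp90ab1, Hspa8, Pdia3 and Hspa5 had the highest levels per length, and Ddit3, Trib3 and Chac1 the lowest. Levels between genes are compared here per kilobase of exon, as TMM-scaled CPM (CPM after trimmed-mean scaling of the libraries) per kb, mean ± SD of 5 WT libraries. Hsp90ab1, the constitutive cytosolic HSP90, stood first at 114 ± 25.2, followed by Hspa8, the constitutive HSP70 also called HSC70, at 99.3 ± 12, and the 2 did not differ beyond their spread. Among ER genes the disulfide isomerase Pdia3 stood at 64.1 ± 13.6, the ER HSP70 Hspa5 (BiP) at 57.8 ± 8.7 and the sensor Ern1 at 53.4 ± 19, again within each other's spread. The ER lectin chaperone Canx followed at 31.6 ± 9.68 and the ER HSP90 Hsp90b1 at 29.1 ± 8.56. The inducible cytosolic HSP90, Hsp90aa1, stood 8th of the 38 at 24.2 ± 3.14. Lower levels were found for the stress-inducible HSP70 genes Hspa1b and Hspa1a at 2.21 ± 1.49 and 1.28 ± 1.24, the inducible J-protein Dnajb1 at 2.66 ± 1.16, and the ER stress effectors Trib3 and Ddit3 (CHOP) at 0.606 ± 1.36 and 0.557 ± 0.723. Chac1, a glutathione-degrading enzyme induced through ATF4, had 0 counts in every WT library.

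Among WT libraries several abundant chaperones varied little, and inducible genes lay on both sides of the median gene of like WT level. The coefficient of variation over 5 WT libraries was 12.1% for Hspa8, 13% for Hsp90aa1 and 15.1% for Hspa5, where the median gene of like WT level had 32.1% (200 to 1000 CPM per library size) or, for Hsp90aa1, 36.2% (100 to 200 CPM). It was 96.9% for Hspa1a, 93.9% for Asns, which encodes asparagine synthetase, and 82.3% for Ppp1r15a, the phosphatase subunit GADD34 that reverses eIF2 alpha phosphorylation. Median genes of their levels had 80% (5 to 20 CPM, for Hspa1a and Asns) and 54.9% (20 to 50 CPM, for Ppp1r15a). The inducible Dnajb1 and Hspa1b, also of 5 to 20 CPM, lay below that 80% at 43.5 and 67.2%. Reads of Hspa1a and Hspa1b may be split between them, and their sum had 40.9%. Herpud1, an ER membrane protein of the degradation machinery, was steady for its low level, at 13.1%.

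**Figure D1:**
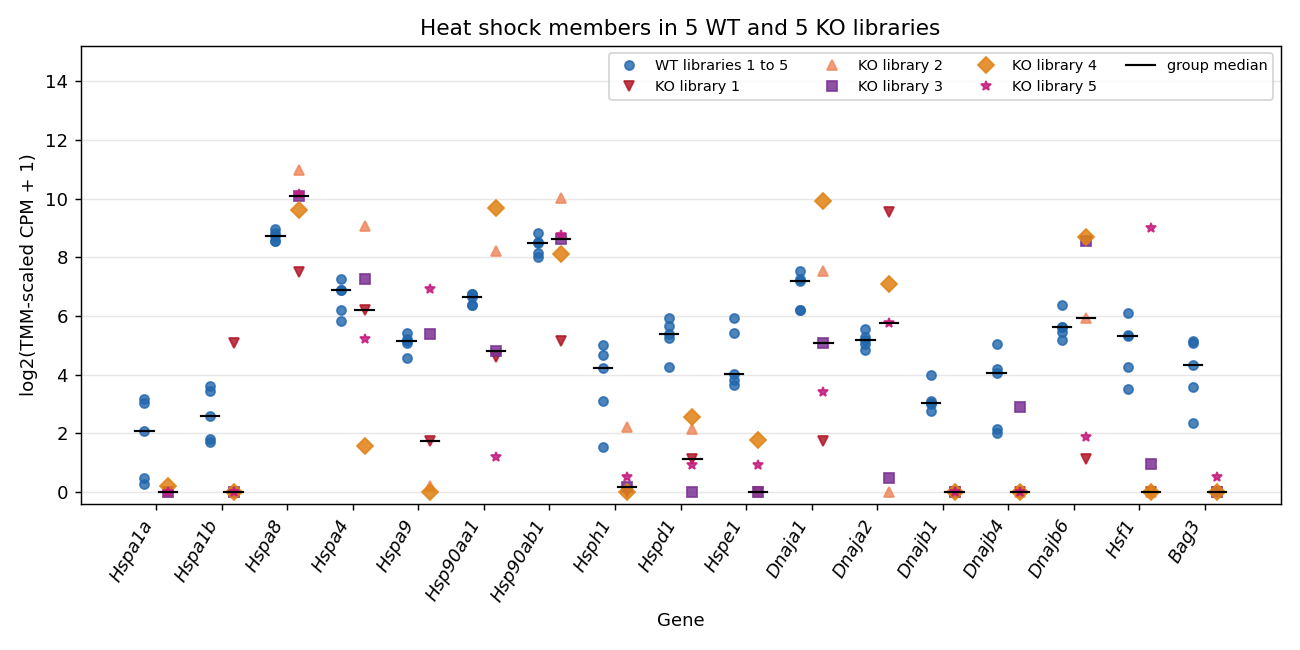
Levels of the 17 heat shock members, as log2(TMM-scaled CPM + 1), in 5 WT libraries (circles) and 5 KO libraries (1 symbol each), with a bar at each group's median. Dnajb1 lies at 0 in every KO library, Hspa8 exceeds the WT range in KO libraries 2 to 5, and Hsf1 lies near 0 in 4 KO libraries and at 510 CPM in KO library 5.

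Of the 17 heat shock members, 16 were tested, 4 fell in KO (Dnajb1, Bag3, Hspe1 and Hsph1), 0 rose and 12 did not pass (edgeR quasi-likelihood test, Benjamini-Hochberg adjusted p under 0.05 over all 7490 tested genes). Over all tested genes 27.1% were lower and 1.5% higher in KO, so 4 of 16 is close to the background. No tested member of either group was above every WT library in all KO libraries (0 of 16 and 0 of 18), and 0.774% of all tested genes were. Without KO library 1, 5 of 17 tested members were lower and 0 higher, against 33.7 and 3.72% of all genes in that fit. Without WT library 3, 4 or 5, 2 of 16 were lower (Dnajb1 and Bag3), against 24.5, 23.8 and 24.3% of all genes. The median log2 fold change (KO minus WT) of the tested members was 0.17, and that of all tested genes −0.47. A separate fit took the 4238 genes with a mean of at least 20 CPM over WT and KO libraries together, 11 heat shock members among them. The median of all genes in that fit was 1.026, and genes can reach that mean through high KO libraries alone. In these bulk samples fewer cells of a type and less RNA per cell cannot be told apart.

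Dnajb1 and Bag3 were all but missing from the KO libraries. Dnajb1, the HSP40 co-chaperone that delivers clients to HSP70 (ENSMUSG00000005483, GRCm38 chromosome 8, 83608193 to 83612653, plus strand, protein coding), had 246, 341, 190, 326 and 661 counts in WT and 0 in each KO library. It was at least 70.2-fold lower in KO, taking 3 counts in the whole KO group as the floor (0.124 CPM, counting error only), with an edgeR adjusted p of 0.00163. Bag3, a nucleotide exchange factor of HSP70 that directs clients to autophagy (ENSMUSG00000030847, chromosome 7, 128523616 to 128546981, plus strand), had 143, 1483, 630, 491 and 1509 counts in WT and 0, 0, 0, 0 and 1 in KO, a ratio of 508 (exact 95% counting interval 91.1 to 20100; edgeR adjusted p = 0.00222). No KO library overlapped a WT library in either gene. Their WT levels were low, however: of 3164 genes with a WT level of 5 to 20 CPM (per library size), the class of Dnajb1, 51.3% were missing (at most 3 counts) from the 5 KO libraries, and of 2070 genes at 20 to 50 CPM, the class of Bag3, 25.3% were.

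The inducible HSP70 genes could not be told from each other with certainty. Hspa1a and Hspa1b are near-identical neighbours on chromosome 17: 62.3% of the 50-base stretches of Hspa1b transcripts also occur in Hspa1a transcripts, so the authors' counting could split or drop their reads. Hspa1a had 7, 144, 268, 325 and 17 counts in WT and 0, 0, 0, 1 and 0 in KO, too few for the edgeR test. Hspa1b had 393, 442, 76, 227 and 111 in WT and 28, 0, 0, 0 and 0 in KO. The WT libraries that were low in Hspa1a, libraries 1 and 5, differed in part from those low in Hspa1b, libraries 3 and 5, and the sum of both genes varied less (coefficient of variation 40.9%, against 96.9 and 67.2%). The log2 fold change of Hspa1b was 0.0064 (SE 1.72, edgeR adjusted p = 0.998) and rested on KO library 1: without it the value was −10.30 (adjusted p = 0.00575), a fitted value that is no bound since the remaining KO libraries had 0 counts. That pass followed from leaving out all KO counts of Hspa1b and is no separate evidence, and 33.7% of genes were lower in that fit.

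The mitochondrial chaperonin genes were low in all KO libraries. Hspe1 and Hspd1 encode HSP10 and HSP60, the lid and barrel of the chaperonin, and lie head to head on chromosome 1. Hspe1 (ENSMUSG00000073676, 55088132 to 55091307, plus strand) had 462, 674, 2017, 1901 and 499 counts in WT and 0, 0, 0, 17 and 2 in KO (edgeR log2 fold change −5.33 with SE 1.77, adjusted p = 0.0293). Hspd1 (ENSMUSG00000025980, 55077835 to 55088243, minus strand) had 1416, 817, 2016, 1662 and 2199 in WT and 1, 23, 0, 34 and 2 in KO, and missed the edgeR threshold (log2 fold change −4.29, SE 1.63, adjusted p = 0.0584). The Hspe1 call was lost without WT library 3, 4 or 5 (adjusted p = 0.0534, 0.0563 and 0.0505), while Hspd1 passed without KO library 2, 3 or 4 (0.0404, 0.0347 and 0.0324). For both, every KO library lay below every WT library, which held for 28.9% of all tested genes (Hspd1, Hspe1, Dnajb1 and Bag3, 4 of 16 tested heat shock members). By exact permutation of the libraries (two-sided, on log2(CPM + 1)) both reached p = 0.00794, the smallest possible with 5 libraries in each group (adjusted p = 0.0268 over all tested genes); by that test 5 of 16 heat shock members were lower, Hsph1, Hspd1, Hspe1, Dnajb1 and Bag3, against 32.2% of all tested genes. Hspa9, the mitochondrial HSP70, had 1141, 1538, 1408, 1646 and 1012 counts in WT and 2, 1, 297, 0 and 277 in KO, so it was found in KO libraries 3 and 5 (edgeR log2 fold change −0.04 with SE 1.72, adjusted p = 0.992). Other annotated genes share 42.1 and 22.8% of the 50-base stretches of Hspd1 and Hspe1, so their counts are uncertain. Their exons also overlap on opposite strands, over 4.2% of Hspd1 and 7.6% of Hspe1, and the strand setting of the counting is not stated in any source used here.

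The stretch between the RefSeq start sites of Hspd1 and Hspe1 is shown because it holds a match to the heat shock element, the site of HSF1, in a pair of genes that were low in every KO library. The motif was searched as GAA, 2 bases of any kind, TTC, 2 bases of any kind and GAA, on both strands in the 250 bases before each annotated start (RefSeq, GRCm38.p6). Capitals mark 2 overlapping matches, 1 on each strand, read on the strand of Hspe1, 89 bases before its start, at chr1:55088053-55088082, which overlaps an annotated exon within the span of Hspd1 in GENCODE M21.
Hspe1: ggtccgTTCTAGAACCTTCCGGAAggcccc
Of 12 heat shock members found in that table, 3 held a match in any of their start windows, Dnajb6 and, through this 1 shared site, Hspd1 and Hspe1. Of all 27025 genes in it, 0.514% did, and of all 32851 start windows 0.466%. Hspa1a, Hspa1b, Dnajb1, Bag3 and Hsph1 held no match to these letters in this window.

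Hsph1, the HSP110 exchange factor, passed narrowly. Hsph1 (ENSMUSG00000029657, chromosome 5, 149614287 to 149636376, minus strand) had 625, 86, 256, 1092 and 1389 counts in WT and 0, 24, 1, 0 and 1 in KO (edgeR log2 fold change −4.20 with SE 1.53, adjusted p = 0.0474). On the scaled level KO library 2 (3.6 CPM) lay above WT library 2 (1.92 CPM), so the groups overlap. The call was lost when any WT library was left out, with adjusted p-values of 0.063 to 0.0945, and without KO library 1, 3 or 5 (0.0694, 0.0528 and 0.0619). Its relative Hspa4, another HSP110 protein, had 4055, 5234, 1872, 3311 and 6647 counts in WT and 62, 3563, 1111, 14 and 82 in KO, over 3 counts in every library (edgeR log2 fold change 0.63 with SE 1.40, adjusted p = 0.793).

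The constitutive HSP70 and HSP90 genes stayed present. Hspa8 had 13152, 16891, 16538, 20624 and 18772 counts in WT and 152, 13329, 7936, 5469 and 2584 in KO. That is 427 ± 51.7 CPM in WT and 1040 ± 660 in KO (TMM-scaled, SD, n = 5 each; log2 fold change 1.28, SE 0.99, edgeR adjusted p = 0.398). The level was below the WT range in KO library 1 and above it in the other 4. With library size alone, with no TMM scaling, the log2 fold change was 0.07, and by DESeq2 it was 1.82 with an adjusted p of 0.049. Hsp90ab1 had 9011, 20045, 9402, 16243 and 16201 counts in WT and 29, 6902, 2846, 1940 and 987 in KO (343 ± 75.6 and 434 ± 370 CPM, edgeR adjusted p = 0.866). Hsp90aa1 had 3738, 3645, 3517, 4479 and 3636 in WT and 20, 1973, 196, 5712 and 3 in KO, so that KO libraries 2 and 4 lay above every WT library and the other 3 below (edgeR adjusted p = 0.583). Other annotated genes share 39.4% of the 50-base stretches of Hspa8 and 47.5% of those of Hsp90aa1. Hspa8, Hspa4 and Hsp90ab1 were the 3 of 16 tested heat shock members with over 3 counts in every KO library, a property of 7.06% of all tested genes and of 50.1% of the 513 genes with a WT level of 200 to 1000 CPM, the class of Hspa8 and Hsp90ab1.

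Dnaja1, Dnaja2, Dnajb6 and Hsf1 lay above every WT library in some KO libraries and had at most 3 counts in others. Dnaja1, a farnesylated partner of HSC70, had 2437 to 8275 counts in WT and 2, 1228, 241, 6721 and 22 in KO. Dnaja2 had 973 to 2062 in WT and 640, 0, 3, 947 and 122 in KO, above every WT library on the scaled level in KO libraries 1, 4 and 5. Dnajb6, which keeps aggregation-prone proteins soluble, had 1182 to 3681 in WT and 1, 398, 2769, 2911 and 6 in KO. Hsf1, the master regulator of the response, had 1382, 3027, 343, 823 and 1704 counts in WT and 0, 0, 7, 0 and 1165 in KO, so KO library 5 gave 99.4% of its KO counts. Its log2 fold change was 1.55 (SE 2.12, edgeR adjusted p = 0.652), and −6.90 without KO library 5 (adjusted p = 0.0124). The pass without KO library 5 followed from that choice and is no separate evidence, and 36.6% of all genes were lower in that fit. Dnajb4 had 138 to 1118 counts in WT and 47 in KO, all in KO library 3, where its level was within the WT range. Its edgeR adjusted p was 0.152, and 0.00564 without that library. The pass followed from leaving out all its KO counts and is no separate evidence, and 3341 of 8812 genes were lower in that fit. In all, 7 of 16 tested heat shock members lay above every WT library in some KO library and had at most 3 counts in another, and 49.9% of all tested genes did so.

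**Figure D2:**
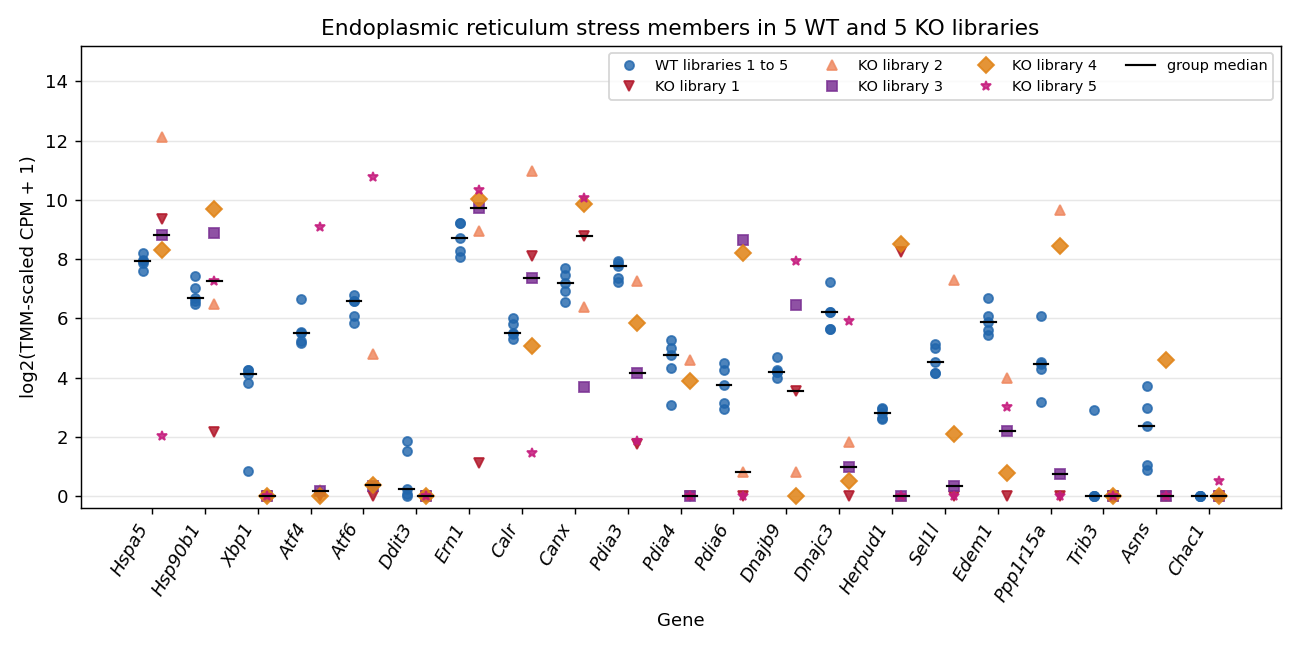
Levels of the 21 ER stress members, as log2(TMM-scaled CPM + 1), in 5 WT libraries (circles) and 5 KO libraries (1 symbol each), with a bar at each group's median. Xbp1 lies at 0 in every KO library, while Hspa5 lies above every WT library in KO libraries 1 to 4 and Atf4 and Atf6 only in KO library 5.

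Of the 21 ER stress members, 18 were tested, 1 fell in KO (Xbp1), 0 rose and 17 did not pass by edgeR, where 27.1% of all tested genes were lower and 1.5% higher. Ddit3, Trib3 and Chac1 had too few counts for the test. The median log2 fold change of the tested members was 1.22, against −0.47 for all tested genes, and their log2 fold changes were negative in 6 and positive in 12. A separate fit took the 4238 genes with a mean of at least 20 CPM over WT and KO libraries together, which 16 of these 18 members reach. The median log2 fold change of all genes in that fit was 1.026. Genes can reach that mean through high KO libraries alone. Without KO library 1 there were likewise 1 lower and 0 higher of 18. The number lower was 3 without KO library 2, 2 without KO library 4 and 3 without KO library 5, against 35.5, 37.8 and 36.6% of all genes in those fits. Without KO library 5, 1 was also higher (Calr), against 2.43% of all genes. By DESeq2, 2 of 17 were lower (Xbp1 and Edem1) and 4 higher (Hspa5, Calr, Canx and Herpud1), with adjusted p-values of 0.00992 to 0.05 for the higher ones, where DESeq2 called 23.3% of 11211 genes lower and 13.5% higher. Scaling moves these values: the median of all tested genes was 0.093 with DESeq2's size factors in edgeR and −1.766 with library size alone, under which the log2 fold change turned negative for Hspa1b, Hspa4, Hsp90ab1, Dnaja1, Dnaja2, Atf4, Ern1 and Sel1l.

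Xbp1, the transcription factor made active by IRE1 splicing, was not seen in any KO library. Xbp1 (ENSMUSG00000020484, GRCm38 chromosome 11, 5520659 to 5525893, plus strand, protein coding) had 28, 583, 549, 815 and 792 counts in WT and 0 in each KO library, at least 110-fold lower in KO by the same floor (edgeR adjusted p = 0.00165; exact permutation p = 0.00794, adjusted p = 0.0268). WT library 1 was far below the other WT libraries, at 0.802 CPM against 13 to 18. Of the 2070 genes in its class of WT level (20 to 50 CPM), 25.3% were likewise missing from all 5 KO libraries. The counts do not separate spliced from unspliced Xbp1.

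Ern1, the enzyme upstream of Xbp1, was present in 4 of 5 KO libraries. It encodes IRE1 alpha and had 20852, 26582, 10281, 12034 and 18269 counts in WT and 1, 3267, 6240, 7326 and 2966 in KO (436 ± 155 and 738 ± 507 CPM); its log2 fold change was 0.76 (SE 1.22, edgeR adjusted p = 0.708). KO library 1 lay below every WT library, KO library 2 within their range and the other 3 above. Atf6, the sensor that is cut in the Golgi, had 2232 to 4250 counts in WT and 0, 179, 2, 2 and 4010 in KO. Atf4, the translation-controlled factor downstream of PERK, had 1593, 4468, 1173, 1988 and 1599 in WT and 0, 1, 1, 0 and 1229 in KO. KO library 5 thus held 95.6% of the KO counts of Atf6 and 99.8% of those of Atf4, and it was the library that held Hsf1. Without it the log2 fold change of Atf4 went from 1.04 (edgeR adjusted p = 0.767) to −9.13 (0.00441), and that of Atf6 from 2.08 (0.491) to −3.61 (0.131). Both changes followed from leaving out the library with nearly all KO counts and are no separate evidence. In that fit 36.6% of all genes were lower.

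The ER chaperones were present in most KO libraries, with high values in different libraries. Hspa5 had 8810, 13292, 6477, 10959 and 10327 counts in WT and 551, 29944, 3306, 2235 and 7 in KO, which is 244 ± 36.8 CPM in WT and 1180 ± 1860 in KO (edgeR log2 fold change 2.28 with SE 1.31, adjusted p = 0.238). KO libraries 1 to 4 lay above every WT library and KO library 5 below. Calr, the soluble lectin chaperone calreticulin, had 1506, 2466, 2122, 1997 and 1701 in WT and 231, 13411, 1198, 227 and 4 in KO (edgeR log2 fold change 3.34 with SE 1.54, adjusted p = 0.129). Calr passed without KO library 5 (adjusted p = 0.0363) and with DESeq2 (0.00992). KO library 5 held the fewest Calr counts, so the pass without it depends on that choice. KO library 2 held 83.1% of the KO counts of Hspa5 and 89% of those of Calr. Canx, the membrane-bound partner of calreticulin, had 3216, 5386, 6938, 7900 and 6390 in WT and 376, 548, 86, 6456 and 2476 in KO, above every WT library on the scaled level in KO libraries 1, 4 and 5 (edgeR adjusted p = 0.352). Hsp90b1 had 2955 to 7578 in WT and 3, 586, 3417, 5847 and 346 in KO (edgeR adjusted p = 0.505). Hspa5, Calr and Canx were the 3 of 18 tested ER members with over 3 counts in every KO library, against 7.06% of all tested genes and, for the class of Hspa5 and Canx (200 to 1000 CPM in WT), 50.1%.

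The 3 disulfide isomerases differed in pattern, and none passed by edgeR. Pdia3, which folds glycoproteins handed over by the lectin chaperones, had 8573, 7398, 7718, 9709 and 6492 counts in WT and 2, 1017, 123, 395 and 6 in KO. KO libraries other than 2 lay below every WT library (201 ± 42.5 and 46.1 ± 63.4 CPM; edgeR log2 fold change −2.12, SE 1.45, adjusted p = 0.33; exact permutation adjusted p = 0.0478). Pdia6, a negative regulator of IRE1, had 273, 297, 724, 829 and 548 in WT and 0, 5, 2938, 2060 and 0 in KO, above every WT library in KO libraries 3 and 4 (edgeR log2 fold change 3.38 with SE 2.01, adjusted p = 0.255). Pdia4 had 260 to 1410 in WT and 0, 153, 0, 96 and 0 in KO (edgeR adjusted p = 0.514).

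Among genes that limit ER stress and remove misfolded protein, Edem1 was the other ER member whose groups did not overlap. Edem1, which extracts misfolded glycoproteins for degradation, had 2325, 1916, 3347, 2161 and 2521 counts in WT and 0, 99, 26, 5 and 16 in KO (63 ± 22.9 and 5.23 ± 6.05 CPM; edgeR log2 fold change −3.58, SE 1.60). It missed the edgeR threshold (adjusted p = 0.116) and passed the exact permutation test (p = 0.00794, adjusted p = 0.0268), DESeq2 (0.0201), edgeR with library size alone (0.0454) and edgeR without KO library 2 (0.0446). With Xbp1 this made 2 of 18 tested ER members without overlap, against 28.9% of all tested genes. Dnajc3, the co-chaperone p58IPK that inhibits PERK, had 2188 to 5213 counts in WT and 0, 17, 7, 3 and 134 in KO (edgeR adjusted p = 0.306, and 0.011 without KO library 5). Sel1l, the scaffold of the HRD1 ligase, had 559 to 1546 in WT and 0, 1038, 2, 23 and 0 in KO (edgeR adjusted p = 0.902, and 0.0252 without KO library 2, with a log2 fold change of −4.56). KO library 2 held 67.8% of the KO counts of Edem1 and 97.6% of those of Sel1l, and KO library 5 held 83.2% of those of Dnajc3. Passes without these libraries followed from that choice and are no separate evidence. In the fits without KO library 2 or 5, 35.5 and 36.6% of all genes were lower. Herpud1 had 177 to 303 in WT and 259, 0, 0, 2575 and 0 in KO, and Dnajb9, the BiP co-chaperone that restrains IRE1, had 525 to 1095 in WT and 9, 5, 635, 0 and 556 in KO; neither passed (edgeR adjusted p = 0.172 and 0.492).

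Among members known to be induced downstream of ATF4, Ppp1r15a and Asns did not pass by edgeR, and Ddit3, Trib3 and Chac1 had too few counts to test. Ppp1r15a had 655, 2950, 270, 959 and 960 counts in WT and 0, 5386, 5, 2428 and 0 in KO (27.2 ± 22.4 and 231 ± 356 CPM, edgeR adjusted p = 0.302). Asns had 29, 47, 407, 189 and 302 in WT and 164 in KO, all in KO library 4 (edgeR adjusted p = 0.984, and 0.00795 without that library). The pass without it followed from leaving out all KO counts of Asns and is no separate evidence. In that fit 37.8% of all genes were lower. Ddit3 (ENSMUSG00000025408) had 0, 119, 63, 8 and 2 in WT and 0 in each KO library, and a second identifier of that name, which lies wholly within it, had 0 in all 10. Trib3, a pseudokinase induced by CHOP, had 283 counts in WT library 5 and 0 in the other 9 libraries, and Chac1 had 1 count in all. Above every WT library in some KO library and at most 3 counts in another were 10 of 18 tested ER members, a share near the 49.9% of all tested genes.

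Of 20 ER stress members found in the promoter table, 6 held a match to the ER stress response element (CCAAT, 9 bases of any kind and CCACG, on either strand) in the 250 bases before a start, where 0.13% of all 27025 genes and 0.113% of all 32851 windows did. The element is known as the site of ATF6 with NF-Y. The genes are Hspa5, Hsp90b1, Calr, Canx, Pdia6 and Dnajc3, none of which passed the edgeR test, and 5 of the stretches are shown because these chaperone and co-chaperone genes share the element. The members were listed as genes of ER stress, to which ATF6 responds, so the high share of matches is no independent finding. Each reads 5′ to 3′ on the strand of its gene, with the match in capitals. The places are chr2:34772020-34772048 (Hspa5, plus strand, 65 bases before its RefSeq start and within an exon of GENCODE M21), chr10:86705513-86705571 (Hsp90b1, minus, 107 bases before, the nearer of 2 matches), chr11:50325780-50325838 (Canx, minus, 145), chr12:17266471-17266529 (Pdia6, plus, 98) and chr14:118937807-118937865 (Dnajc3, plus, 105), all RefSeq GRCm38.p6.
Hspa5: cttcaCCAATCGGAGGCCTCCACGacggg
Hsp90b1: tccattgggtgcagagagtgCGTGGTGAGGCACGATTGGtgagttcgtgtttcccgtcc
Canx: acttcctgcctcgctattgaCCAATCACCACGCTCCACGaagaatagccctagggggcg
Pdia6: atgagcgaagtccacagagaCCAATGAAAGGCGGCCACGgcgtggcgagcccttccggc
Dnajc3: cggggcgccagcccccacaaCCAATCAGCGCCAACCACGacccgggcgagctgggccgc
In the Hsp90b1 stretch the match lies on the other strand. The element recognised by ATF4 with C/EBP factors, searched as TGATGNAA on either strand, was matched in Herpud1, Asns and Chac1, 3 of 20, in 3.91% of all genes and in 3.45% of all windows. These matches are letters in a window and do not show binding.

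**Figure D3:**
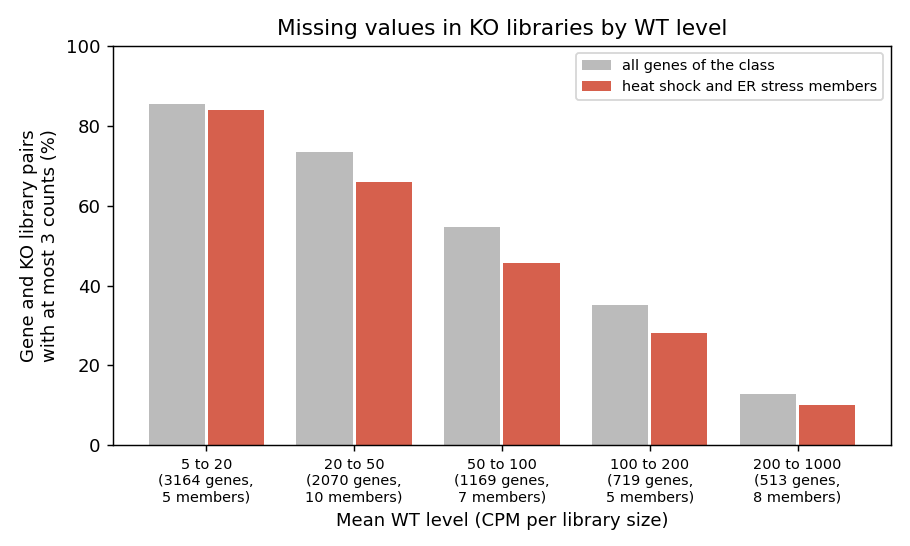
Share of gene and KO library pairs with at most 3 counts, by class of mean WT level in CPM per library size, for all genes of a class (grey) and for the members in it (red). The share falls from 85.4 to 12.9% over all genes and from 84 to 10% over members, side by side in each of the 5 classes.

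Members of low WT level were missing from KO libraries more often than abundant ones, and so were other genes. The comparison is by class of WT level. For members with a WT level of 5 to 20 CPM (per library size), 21 of 25 gene and library pairs had at most 3 counts in KO, 84% against 85.4% of pairs over all genes of that class. At 20 to 50 CPM it was 33 of 50 pairs (66%, against 73.4%), and at 50 to 100 CPM 16 of 35 (45.7%, against 54.6%). At 100 to 200 CPM it was 7 of 25 (28%, against 35.1%) and at 200 to 1000 CPM 4 of 40 (10%, against 12.9%). The members missing from all 5 KO libraries in these classes were Hspa1a, Dnajb1, Bag3 and Xbp1. Ddit3, Trib3 and Chac1 lay under 5 CPM. Among tested genes, at most 3 counts in all 5 KO libraries was found for 22.3%, for 2 of 16 heat shock members and for 1 of 18 ER members. With every library thinned to 3620002 counts, WT libraries had at most 3 counts for 0 or 1 of 17 heat shock and 2 to 4 of 21 ER members, and KO libraries for 8 to 11 and 9 to 16.

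**Figure D4:**
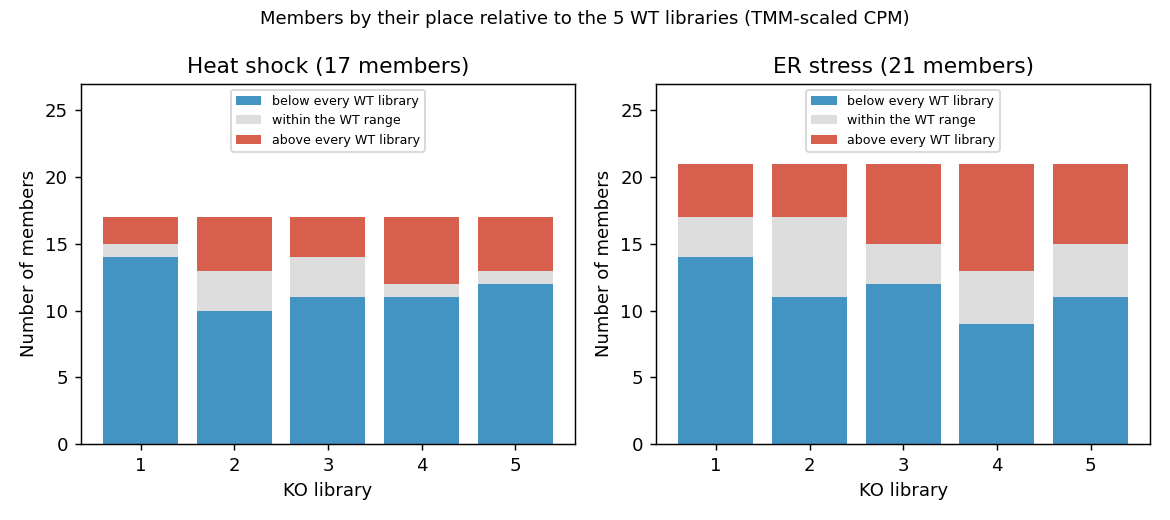
Number of the 17 heat shock members (left) and 21 ER stress members (right) in each KO library that lay below every WT library, within the WT range or above every WT library, on TMM-scaled CPM. Every KO library held members of both kinds, from 9 to 14 below and from 2 to 8 above. Of all tested genes 65.7 to 81.6% lay below and 10.1 to 21.5% above in a KO library.

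No KO library was high or low throughout. KO library 1 had at most 3 counts for 27 of the 38 members, and KO libraries 2 to 5 for 16, 18, 16 and 19, where WT libraries had 2 or 3. KO library 4 lay above every WT library in 5 heat shock and 8 ER members, and below in 11 and 9, while of all tested genes 21.5% lay above and 65.7% below in that library. In KO libraries 1, 2, 3 and 5 the shares of all tested genes above every WT library were 10.1, 19, 21.1 and 17.6%. The shares below every WT library were 81.6, 71.1, 66.2 and 71.5%. Members below numbered 14, 10, 11 and 12 of 17 heat shock and 14, 11, 12 and 11 of 21 ER genes. The summed heat shock level per library size was 1860 to 2790 CPM in WT and 197, 3020, 1790, 2410 and 1450 CPM in KO libraries 1 to 5. The summed ER level was 2350 to 3240 CPM in WT and 301, 6130, 2080, 3020 and 3250 CPM in KO. On this scale both sums were lowest in KO library 1, and both were above the WT range in KO library 2, where Hspa5 gave 53.8% of the ER sum. On TMM-scaled CPM the heat shock sum was 1290 to 1520 in WT and 1100, 4120, 2120, 3390 and 2300 in KO, so that KO libraries 2 to 5 lay above the WT range and KO library 1 below. The TMM-scaled ER sum was 1390 to 1800 in WT and 1680, 8350, 2460, 4250 and 5150 in KO, above the WT range in KO libraries 2 to 5 and within it in KO library 1. The place of the KO sums against WT thus depends on the scaling. The leading heat shock gene was Hspa8 in KO libraries 2, 3 and 5, Dnaja2 in KO library 1 and Dnaja1 in KO library 4.

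Further genes of these pathways were counted the same way. Of 41 tested further cytosolic and mitochondrial chaperone genes, 6 were lower in KO, 0 higher and 35 did not pass (14.6% lower, against 27.1% of all tested genes; median log2 fold change 0.09). They were led by the J-protein Dnajb14 (1842 WT counts, 1 KO count), the exchange factors Bag5 (1226 and 0) and Grpel1 (1042 and 0) and the HSP70 and HSP90 co-chaperone Dnajc7 (3249 and 2), with edgeR adjusted p-values of 0.00163 to 0.0021. Of 54 tested further ER genes, 13 were lower, 0 higher and 41 did not pass (24.1%, median −0.49). The first of these were Cnpy2 (2331 WT counts and 1 KO count), the ER thioredoxin-fold protein Erp29 (1585 and 1), Sdf2 (3454 and 1) and Mbtps2, the site-2 protease that releases ATF6 (3353 and 1), each at an edgeR adjusted p of 0.00163. Of 31 tested further genes of the integrated stress response, amino acid supply and tRNA charging, 11 were lower, 2 higher and 18 did not pass (35.5% lower, median −0.24). The lower ones were led by Phgdh, the entry enzyme of serine synthesis (1111 WT counts and 0 KO counts, at least 44.2-fold lower), Pck2 (774 and 0, at least 30.8-fold) and the aminoacyl-tRNA synthetases Sars (3580 and 0, at least 142-fold) and Tars (3183 and 1), each at an edgeR adjusted p of 0.00163.

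The 2 that were higher, named after their values were seen, were Atf3 and Slc7a11. Atf3, a stress-induced transcription factor downstream of ATF4, had 401, 1188, 808, 1774 and 2534 counts in WT and 1, 6590, 4199, 3942 and 1147 in KO (31.8 ± 17.5 and 526 ± 351 CPM; edgeR log2 fold change 4.05, SE 1.48, adjusted p = 0.0486). It lay near 0 in KO library 1 and passed more clearly without it (adjusted p = 0.00619), a gain that followed from leaving out that low library. The call was lost when any WT library was left out (0.0928 to 0.125), with library size alone (0.185) and in the exact permutation test (0.246). It was also lost by voom (0.118), with the stricter filter (0.0962), with no filter (0.0835) and after thinning (0.0568). Of 11 alternatives other than single libraries left out, 5 kept it, DESeq2 among them (0.000714). Slc7a11, the cystine transporter, had 73 counts in WT and 672 in KO. KO library 5 gave 621 of these, and the edgeR adjusted p was 0.0373 with that library and 0.207 when it was left out. Of 7 alternatives other than single libraries left out, 2 kept the call. It was lost with library size alone (0.0616), by voom (0.0908) and in the exact permutation test (0.354). Leaving out WT library 1, 2 or 5 also lost it (0.0872, 0.0868 and 0.106). Immediate early genes, which dissociation and sorting can raise, were listed because inducible chaperones can rise with them. Of 16 such genes 15 were tested and 0 passed by edgeR, and their median log2 fold change was 0.51. They summed to 4510 to 8960 CPM per library size in WT and 1390 to 10200 CPM in KO, with overlap. On TMM-scaled CPM they summed to 2410 to 4900 in WT and 6800 to 13900 in KO, every KO library above every WT library. This scaling divides KO levels by smaller numbers (0.1803 for KO library 1, up to 0.9276 for KO library 3) than WT levels (at least 1.462). The heat shock and ER sums on this scale also lay above the WT range in KO libraries 2 to 5. The place of the immediate early sums thus depends on the scaling, and a difference in these sums was not tested.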

How the data were processed

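Total RNA of sorted lung ILC2 was sequenced from a stranded library kit, per the labels' protocols. The authors deposited raw counts of reads per gene. STAR 2.6.0c, SAMtools 1.8, HTSeq 0.9.1 and the build GRCm38 are named in the submitters' processing notes; no source used here gives the annotation release or strand setting. Total counts were 3620002 to 24489987 per library.

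Counts were fitted over all genes with edgeR 4.0.16 in R 4.3.3 (filterByExpr with a minimum count of 10, TMM scaling, quasi-likelihood test, Benjamini-Hochberg adjustment over 7490 genes, threshold 0.05), with WT and KO as groups. TMM-scaled CPM and CPM per library size were computed from the counts. The exact permutation test used log2(CPM + 1). A gene with at most 3 counts was called missing. Intervals and floors cover counting error only, since reads are not independent molecules. Alternatives were DESeq2 1.42.0, voom in limma 3.58.1, other scalings and filters, thinning and leaving out libraries. Fits were tested on simulated data with the same spread between libraries in both groups. In the data themselves the common dispersion (spread beyond counting error) was 0.53 in WT and 6.51 in KO. The simulation therefore does not cover the spread of the KO libraries or its difference from WT. All 38 members are described; other genes named are Maf and, of each list, up to 4 with the lowest edgeR p-values among those that passed, and Atf3 and Slc7a11, chosen after their values were seen. Members and lists were chosen with earlier results of these data known. Gene positions are from GENCODE M21, and promoters from RefSeq (GRCm38.p6), where 32 members were found.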

Additional observations from a re-analysis of the deposited data

Results flagged for a closer look

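In 15 of 76 groups of 5 libraries, the highest or lowest library stood further from the nearest other than Dixon's 95% critical value of 0.71 allows, on log2(TMM-scaled CPM + 1). In 71 of the 76 groups the libraries differed at all. A chance rate of about 1 in 20 groups holds for normally spread values without ties, so the 15 flags cannot be set against it. Where all other libraries of a group had no counts, a library with any count was flagged whatever its size. These groups were Trib3 in WT and Hspa1a, Hspa1b, Dnajb4, Bag3, Asns and Chac1 in KO. Of the 15, 4 were WT and 11 KO groups.

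In WT, Dnajb1 stood high in library 5 with 661 counts, Atf4 in library 2 with 4468 and Trib3 in library 5 with 283, while Xbp1 stood low in library 1 with 28. In KO, Hsf1 (1165 counts) and Atf4 (1229) stood high in library 5, Sel1l (1038) and Hsph1 (24) in library 2, Asns (164) in library 4, Dnajb4 (47) in library 3 and Hspa1b (28) in library 1. Ern1 stood low in KO library 1 with 1 count. Hspa1a in KO library 4, Bag3 in KO library 5 and Chac1 in KO library 5 were singled out by 1 count where the other KO libraries had 0.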

How the results depend on the processing

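Over 999 values of the genes named, each under an alternative, 833 kept direction and side of the threshold, 36 lost the call, 41 gained it and 89 changed direction; causes were not tested. The number of lower genes over the whole table, 2027 as reported, was 267 (stricter filter), 1255 (thinned to the smallest total), 3291 (without KO libraries 1 and 5). The number of higher genes over the whole table, 112 as reported, was 193 (RLE size factors), 49 (library size alone), 1512 (DESeq2), 71 (voom), 73 (exact permutation), 2345 (no filter on low counts), 238 (stricter filter), 53 (thinned to the smallest total), 348 (without KO libraries 1 and 5). The number of lower heat shock members, 4 of 16 as reported, was 1 of 11 with the stricter filter, where 267 of 4238 genes were lower. The number of higher heat shock members, 0 of 16 as reported, was 2 of 17 by DESeq2, where 1512 of 11211 genes were higher. The number of lower ER members, 1 of 18 as reported, was 2 of 18 with library size alone and 2 of 17 by DESeq2. Of all genes 2332 of 7490 and 2611 of 11211 were lower there. It was 4 of 18 by voom, 3 of 18 by exact permutation and 5 of 18 by voom with weights by group. By these tests 2487, 2414 and 2724 of 7490 genes were lower. It was 0 of 16 with the stricter filter, 0 of 16 after thinning and 3 of 18 without KO libraries 1 and 5. In these fits 267 of 4238, 1255 of 5996 and 3291 of 9854 genes were lower. The number of higher ER members, 0 of 18 as reported, was 4 of 17 by DESeq2 and 3 of 18 without KO libraries 1 and 5. Of all genes 1512 of 11211 and 348 of 9854 were higher there. With single libraries left out, the numbers ranged over 1734 to 3350 lower genes over the whole table, 82 to 333 higher genes over the whole table, 2 to 6 lower heat shock members, 1 to 3 lower ER members, 0 to 1 higher ER members. The log2 fold changes given next changed sign against the reported ones. With library size alone they were −3.16 for Hspa1b, −0.64 for Hspa4, −0.88 for Hsp90ab1, −0.32 for Dnaja1, −0.22 for Dnaja2, −0.28 for Atf4, −0.41 for Ern1, −0.86 for Sel1l. By voom they were −4.04 for Hspa1b, −0.84 for Hspa4, −0.98 for Hsp90aa1, −0.00291 for Hsp90ab1, −1.63 for Dnaja1, −1.02 for Dnajb6, −4.48 for Hsf1, −5.36 for Atf4, −3.53 for Atf6, −0.11 for Ern1, −2.33 for Pdia6, −0.61 for Dnajb9, −0.74 for Herpud1, −3.90 for Sel1l, −3.01 for Ppp1r15a. On log2(CPM + 1), used for the exact permutation, differences were −1.62 for Hspa1b, −0.75 for Hspa4, −0.88 for Hsp90aa1, −0.27 for Hsp90ab1, −1.35 for Dnaja1, −0.61 for Dnaja2, −0.42 for Dnajb6, −2.91 for Hsf1, −3.73 for Atf4, −3.12 for Atf6, −0.66 for Ern1, −0.19 for Pdia6, −0.52 for Dnajb9, −2.65 for Sel1l, −0.74 for Ppp1r15a. With no filter on low counts they were −0.23 for Hspa1b, −0.0111 for Hsp90ab1. Without KO libraries 1 and 5 they were −10.46 for Hspa1b, −6.81 for Hsf1, −9.09 for Atf4, −3.25 for Atf6, 0.61 for Asns. By voom with weights by group they were −4.04 for Hspa1b, −0.86 for Hspa4, −0.79 for Hsp90aa1, −0.0375 for Hsp90ab1, −1.19 for Dnaja1, −1.99 for Dnaja2, −0.29 for Dnajb6, −4.94 for Hsf1, −5.79 for Atf4, −4.14 for Atf6, −0.18 for Ern1, −0.46 for Pdia6, −1.66 for Dnajb9, −1.43 for Herpud1, −3.44 for Sel1l, −1.13 for Ppp1r15a. With RLE size factors they were 0.83 for Hspa9, 0.0105 for Asns. By DESeq2 it was 0.73 for Hspa9. The stricter filter gave 0.0943 for Hspa9. Thinned libraries gave 0.24 for Hspa9. Leaving out single libraries gave log2 fold changes that crossed 0, from −10.30 to 0.96 for Hspa1b, −0.42 to 1.03 for Hspa4, −1.59 to 0.60 for Hspa9, −0.11 to 1.61 for Hsp90aa1, −0.11 to 0.70 for Hsp90ab1, −1.13 to 1.21 for Dnaja1, −6.90 to 2.32 for Hsf1, −9.13 to 1.804 for Atf4, −3.61 to 2.85 for Atf6, −4.56 to 0.72 for Sel1l, −9.92 to 0.54 for Asns. Fits by voom with weights by group were chosen after seeing the data. Dnajb1, Bag3 and Xbp1 kept their calls under every alternative that could test them. The stricter filter removed all of them, and thinning also removed Xbp1. With 0 or 1 counts in KO they enter a fit only through their WT libraries. Their direction was thus fixed, and keeping the call is no separate evidence. No paired analysis was possible because the numbers of the libraries only follow the order of deposit and the groups share none. At most 3 counts in a KO library does not show absence, and at 3620002 counts per library WT libraries had that few for 0 or 1 of 17 heat shock members and KO libraries for 8 to 11.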
